A study of Oryctolagus cuniculus with 12 samples.

Results

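Leukocytes leave the blood in steps. Selectins on the activated vessel wall (SELE, E-selectin, and SELP, P-selectin) slow the cells by binding sugar-bearing ligands such as SELPLG, also called PSGL-1. Integrins of the leukocyte then hold it to the immunoglobulin-family proteins ICAM1 and VCAM1. LFA-1 (ITGAL with ITGB2) and Mac-1 (ITGAM with ITGB2) bind ICAM1, whereas VLA-4 (ITGA4 with ITGB1) binds VCAM1. P-selectin is stored ready-made in endothelial cells and platelets, while E-selectin and VCAM1 are made after the endothelium is activated by cytokines. ICAM1 is found on many cell types, epithelium included.

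These 9 genes were followed in the rabbit conjunctiva after glaucoma filtration surgery. They are the rows of the gene table carrying their names, except that no row is named ITGAM. Its row, described as integrin alpha-M, was found by its gene ID. All 9, of 20566 genes in the table, passed the filter on low counts, which kept 14835 genes. Female Japanese white rabbits had trabeculectomy with mitomycin C, an agent that stops cells dividing, in the right eye, and a steroid injection and antibiotic ointment ended the operation according to the study's methods. Conjunctiva with the filtration bleb, the blister of tissue into which aqueous humor drains, was taken 3 hours (TL3h), 3 days (TL3d) or 14 days (TL14d) later, with 3 RNA-seq libraries per time. The 3 control libraries came from left eyes. Which operated eye each control belongs to, and at which time it was taken, is not stated, so groups were compared unpaired.

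Totals ran from 27111348 to 38591425 counts per library. Levels are in CPM, a library's counts scaled to one common total, after correction by TMM factors, which were 0.768 to 0.783 at TL3h and 1.03 to 1.13 elsewhere. A count of 3, the most that 0 observed counts leave room for at 95% confidence, corresponded to 0.0712 to 0.124 CPM, for counting error only. No library was a copy of another of its group, their squared differences being at least 80.7 times the counting variance. TL14d replicate 1 stood apart from the other TL14d libraries, and it had the lowest TL14d value for each of the 9 genes. Its Pearson's r of log2 CPM with them was 0.863 and 0.903, against 0.939 between replicates 2 and 3. Other groups held such a library too. Control replicate 3 had r of 0.916 and 0.937, against 0.972 between replicates 1 and 2. TL3d replicate 3 had r of 0.906 and 0.948, against 0.974 between replicates 1 and 2. A gene is called changed at an adjusted p (q) of 0.05 or less in edgeR's quasi-likelihood test, with Benjamini-Hochberg adjustment over all 14835 genes. The libraries of an operated group come from separate eyes according to the study's text, and only right eyes were operated, so they are separate animals. Which animals gave the controls is not stated. In pieces of tissue, more RNA per cell and more cells of a type cannot be told apart.

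Of the 9 genes, 7 were higher at TL3h than in control and none was lower: SELP, SELPLG, ICAM1, ITGAM, ITGAL, ITGB2 and ITGA4. Of all genes tested, 45.4% were called in this comparison and 23.2% were called higher. At TL3d, 5 were higher (SELP, SELPLG, ITGAM, ITGAL and ITGB2) against 17.6% of all genes called and 10.6% called higher. At TL14d, 0 of 9 were called, with 0% of all genes. The median log2 fold change of the 9 genes was 2.91 at TL3h, 2.43 at TL3d and 0.84 at TL14d, where the median of all genes was 0.02, 0.00 and 0.02. All 7 genes called at TL3h had every TL3h library above every control library, which 28.9% of all genes did. At TL3d this held for 8 of the 9 genes, VCAM1 being the exception, and for 23.8% of all genes. At TL14d it held for 0 of 9, with 6.03% of all genes.

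**Figure D1:**
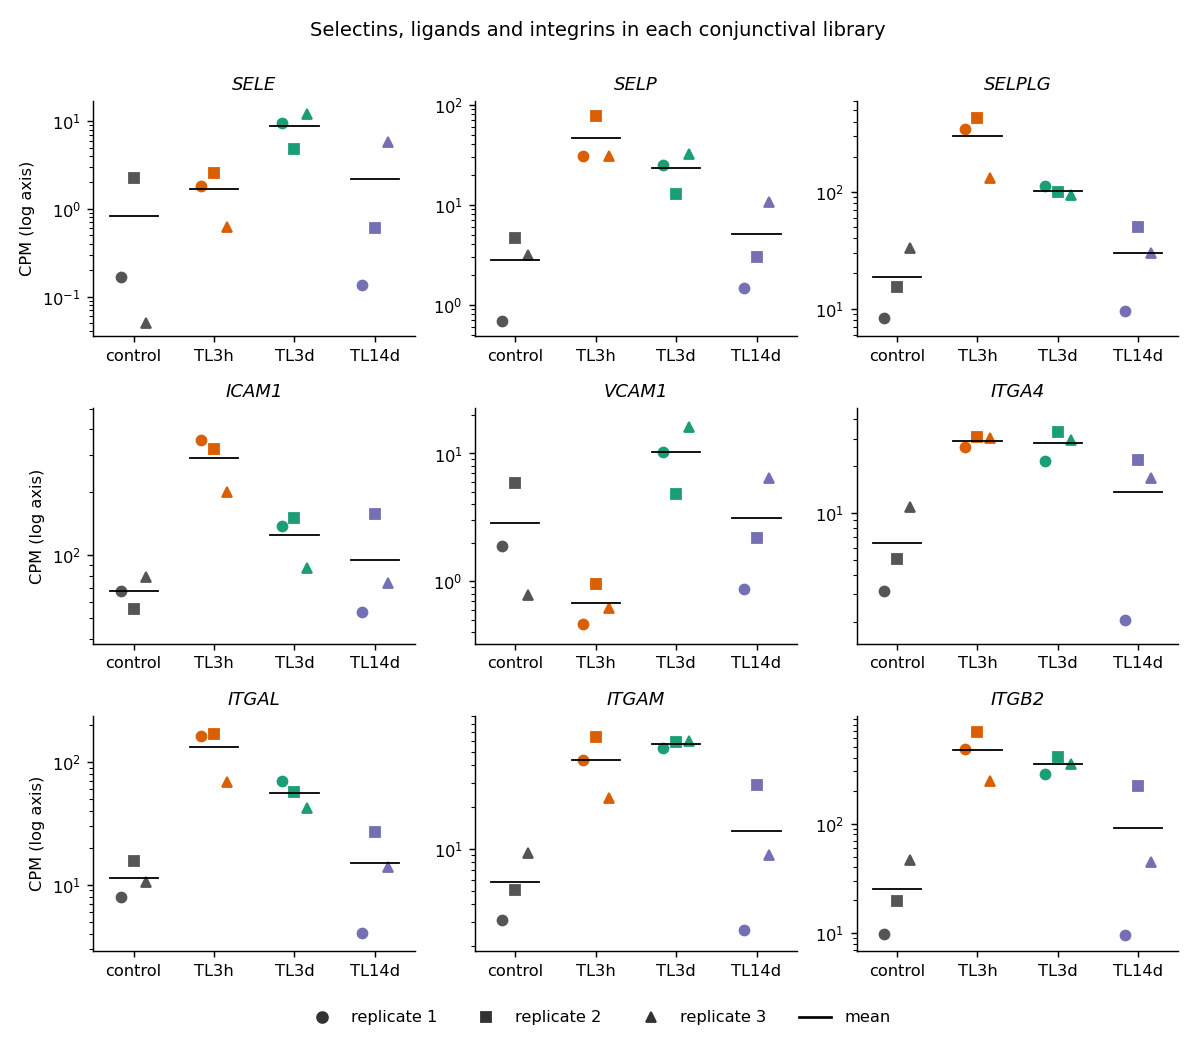
Level of each gene in the 12 libraries (vertical axis, CPM on a log axis; horizontal axis, group). Symbols are replicates and horizontal lines are group means. SELP, SELPLG, ICAM1 and the 4 integrin genes lie above control in all 3 TL3h libraries, while VCAM1 lies between 0.461 and 0.954 CPM at TL3h and between 4.83 and 15.99 CPM at TL3d.

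The 2 endothelial selectins had their highest mean levels at different times, SELP at TL3h and SELE at TL3d, but neither difference between these times passed the test in the fit of all 12 libraries. With only the 6 libraries compared, SELE was called higher at TL3d than at TL3h (log2 difference 2.43, q = 0.0202), which was 1 of 18 alternative fits, the others giving no call. SELP (chromosome 13, 21726540 to 21767954, minus strand, OryCun2.0) and SELE (chromosome 13, 21850677 to 21860299, minus strand) lie close together. SELP was at 0.688, 4.65 and 3.11 CPM in control, 30.6, 77.7 and 30.4 CPM at TL3h, and 25.0, 12.8 and 32.2 CPM at TL3d. The lowest library of either time was thus above the highest control library. At TL14d it was at 1.48, 3.02 and 10.7 CPM, a range that overlapped control. SELP rose 16.4-fold at TL3h (log2 fold change 4.04 ± 0.89 SE, q = 0.00449) and 8.29-fold at TL3d (3.05 ± 0.85, q = 0.0375), and its TL14d change was 0.84 ± 0.81 (q = 0.740).

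SELE was at 0.166, 2.25 and 0.0502 CPM in control, 1.81, 2.57 and 0.622 at TL3h, 9.49, 4.87 and 12.2 at TL3d and 0.134, 0.598 and 5.79 at TL14d. The controls spread widely, from 2 to 90 rounded counts, and replicate 2 alone reached the TL3h values. All 3 TL3d libraries lay above every control and every TL3h library. SELE did not pass the test at TL3h (1.01 ± 1.37, q = 0.581) or at TL3d (3.42 ± 1.45, q = 0.119). DESeq2 called the TL3d difference, with an adjusted p of 0.0283.

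SELPLG, the leukocyte's ligand for P-selectin, was at 8.24, 15.3 and 32.9 CPM in control and 343, 429 and 132 CPM at TL3h. It stood at 112, 99.3 and 93.9 CPM at TL3d and at 9.48, 50.2 and 29.7 CPM at TL14d. The TL3d libraries were close together, below all TL3h and above all control libraries. The rise was 15.99-fold at TL3h (4.0 ± 0.72, q = 0.00142) and 5.4-fold at TL3d (2.43 ± 0.67, q = 0.0354).

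ICAM1 differed from the other genes in being plentiful in the control eye. It was at 67.5, 55.5 and 78.8 CPM in control and 357, 321 and 201 CPM at TL3h. Values at TL3d were 138, 150 and 87.2 CPM, and those at TL14d were 53.5, 157 and 73.5 CPM. All TL3h libraries lay above those of every other group. ICAM1 rose 4.36-fold at TL3h (2.12 ± 0.40, q = 0.00194) and was 0.90 ± 0.39 above control at TL3d on the log2 scale, which missed the threshold (q = 0.126) although the libraries did not overlap.

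VCAM1 (chromosome 13, 63440580 to 63462573, minus strand), the partner of VLA-4, was the only one of the 9 with a lower mean at TL3h than in control. It was at 1.90, 5.90 and 0.778 CPM in control, 0.461, 0.954 and 0.622 at TL3h, 10.2, 4.83 and 15.99 at TL3d, and 0.874, 2.17 and 6.38 at TL14d. The TL3h values rest on 12, 23 and 17 rounded counts. They overlapped the lowest control library only, and the TL3d libraries lay above all of them. VCAM1 was 3.93 ± 0.93 higher at TL3d than at TL3h on the log2 scale (q = 0.00836), a call kept in 18 of 18 alternative fits. Its TL3h difference from control, -2.07 ± 0.88, missed the threshold (q = 0.0787), and so did its TL3d difference, 1.85 ± 0.84 (q = 0.140). The TL3h difference was called lower by DESeq2 (q = 0.0249), with scaling by library size only (q = 0.0317) and without control replicate 3 (q = 0.0330).

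The β2 integrin chain ITGB2 had the highest fitted fold change of the 9 at TL3h, within its SE of that of SELP. Its libraries were at 9.71, 19.7 and 46.0 CPM in control, 480, 682 and 242 CPM at TL3h, and 286, 408 and 348 CPM at TL3d. At TL14d they were at 9.62, 219 and 44.7 CPM. Both early times were clear of control, while TL14d replicate 2 alone came near them. The rise was 18.6-fold at TL3h (4.22 ± 1.03, q = 0.00757) and 13.8-fold at TL3d (3.79 ± 1.01, q = 0.0320).

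Its alpha partners had lower fitted values, a difference that was not tested. ITGAL, the LFA-1 chain, was at 7.93, 15.5 and 10.6 CPM in control, 162, 168 and 68.4 at TL3h, 69.8, 56.5 and 42.3 at TL3d, and 4.07, 26.8 and 14.0 at TL14d. It rose 11.7-fold at TL3h (3.55 ± 0.63, q = 0.00139) and 4.96-fold at TL3d (2.31 ± 0.60, q = 0.0296). ITGAM, the Mac-1 chain, was at 3.06, 5.05 and 9.28 CPM in control, 43.4, 64.3 and 23.1 at TL3h, 52.9, 58.8 and 59.6 at TL3d, and 2.59, 28.7 and 9.05 at TL14d. Its TL3d libraries were the most even of its 4 groups. It rose 7.52-fold at TL3h (2.91 ± 0.76, q = 0.0108) and 9.85-fold at TL3d (3.30 ± 0.78, q = 0.0221). Of its 12 count values, 75.0% were fractions, more than of any other of the 9 genes. Its row has relatives among the alpha chains, and whether reads were shared with them was not tested, so its level is uncertain.

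ITGA4 (chromosome 7, 121433522 to 121544431, plus strand), the VLA-4 chain, was at 3.16, 5.05 and 10.96 CPM in control and at 26.6, 30.7 and 30.0 CPM at TL3h. It was at 21.4, 33.2 and 29.5 CPM at TL3d, and at 2.05, 21.8 and 16.8 CPM at TL14d. Both early groups were above every control library and overlapped each other. ITGA4 rose 4.55-fold at TL3h (2.19 ± 0.70, q = 0.0276). At TL3d its difference was 2.13 ± 0.70 (q = 0.0605). The TL3h call was lost in 6 of 18 alternative fits, with q up to 0.0935 without control replicate 1.

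Leaving out 1 library moved the TL3d calls most. All 5 were lost without control replicate 1, control replicate 2, TL3d replicate 1 or TL3d replicate 2, where 3.25%, 2.46%, 2.97% and 2.37% of all genes were called. Without TL3d replicate 3 (15.2% of genes) or TL3h replicate 1 (14%), 3 members were called. Without TL14d replicate 1 (25%) there were 6, ITGA4 being called as well (q = 0.00730). At TL3h the count stayed between 6 and 8.

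**Figure D2:**
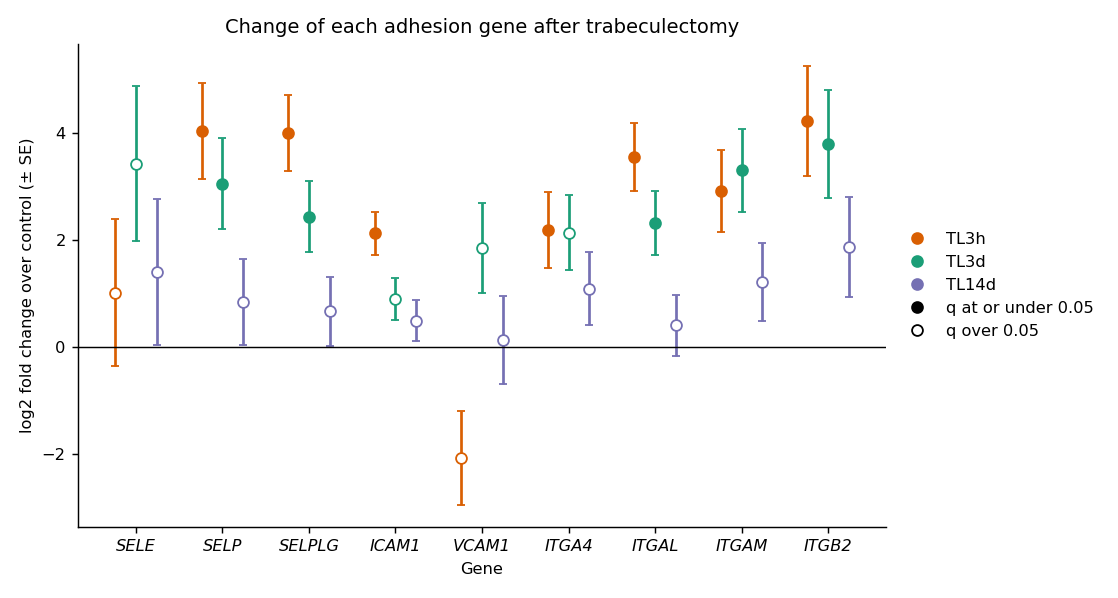
Fitted log2 fold change over control of each gene (vertical axis) with its standard error (bars), for TL3h, TL3d and TL14d. Filled points have q of 0.05 or less: 7 genes at TL3h, 5 at TL3d and 0 at TL14d.

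At TL14d the 9 genes were unevenly spread among libraries. Replicate 2 was highest for 6 genes (SELPLG, ICAM1, ITGAM, ITGAL, ITGB2 and ITGA4), and replicate 3 for the other 3 (SELE, SELP and VCAM1). SELE, SELP and VCAM1 thus peaked in another library than the 6 genes, ICAM1 included. In control, replicate 2 was likewise highest for SELE, SELP and VCAM1, together with ITGAL, and replicate 3 for the remaining 5. At TL3d replicate 3 was highest for SELE, SELP, VCAM1 and ITGAM. At TL3h the genes did not divide in this way, and replicate 2 was highest for 8 of the 9, all but ICAM1. No member reached an unadjusted p of 0.05 at TL14d by edgeR, and DESeq2 called 0 of 9. Among all genes, 1538 had an unadjusted p below 0.05 in edgeR and 367, or 2.47%, were called by DESeq2. Without TL14d replicate 1, 4.74% of genes were called and still 0 of the 9. The log2 fold changes without it were 2.39 for ITGB2 (q = 0.106), 1.59 for ITGA4 (q = 0.0710) and 1.70 for ITGAM (q = 0.129).

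The times were also compared with each other. From TL3h to TL3d, 2 of 9 genes were called, with 37.3% of all genes. VCAM1 was higher, as given above, and ICAM1 was lower (log2 difference -1.23 ± 0.39, q = 0.0321). The ICAM1 call was lost in 6 of 18 alternative fits, q reaching 0.148 with scaling by library size only. Without TL14d replicate 1, where 41.2% of genes were called, SELPLG (-1.56, q = 0.0434) and ITGAL (-1.24, q = 0.0359) were called lower as well. ITGAM and ITGB2 changed by 0.39 ± 0.71 (q = 0.695) and -0.43 ± 0.90 (q = 0.737), and ITGA4 by -0.05 ± 0.67 (q = 0.958). SELE changed by 2.41 ± 1.39 (q = 0.198) without overlap, and SELP by -0.99 ± 0.79 (q = 0.353) with its libraries overlapping.

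From TL3h to TL14d, 4 of 9 genes were called lower and 0 higher, with 45.3% of all genes called and 22.3% called lower. The log2 difference was -3.34 ± 0.69 for SELPLG (q = 0.00334), -3.19 ± 0.86 for SELP (q = 0.0126), -3.15 ± 0.62 for ITGAL (q = 0.00254) and -1.63 ± 0.40 for ICAM1 (q = 0.00757). These 4 calls were kept in 18 of 18 alternative fits. ITGB2 (-2.36 ± 0.95, q = 0.0655) and ITGAM (-1.70 ± 0.73, q = 0.0819) missed the threshold, and so did VCAM1 in the other direction (2.21 ± 0.88, q = 0.0639). VCAM1 was called higher in 5 of 18 alternative fits, among them DESeq2 (q = 0.0170) and the fit without TL14d replicate 1 (q = 0.0331). ITGB2 and ITGAM were each called lower in 3 of 18, namely DESeq2 (q = 0.0176 and 0.0417), the replicate block (q = 0.0325 and 0.0434) and the fit without TL14d replicate 2, the highest TL14d library for both (q = 0.00590 and 0.00803). From TL3d to TL14d, 0 of 9 were called by edgeR (2.24% of all genes), 4 had an unadjusted p below 0.05, and DESeq2 called 4 lower (12.5% of all genes): SELP, SELPLG, ITGAM and ITGAL.

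Levels of different genes were compared per transcript length, as the deposited FPKM. In control, ICAM1 led with 31.4 ± 4.43 FPKM (SD, n = 3 in all FPKM values), clear of ITGB2 (8.31 ± 5.89) and SELPLG (7.16 ± 4.57), which overlapped. SELE (0.236 ± 0.357) and VCAM1 (0.620 ± 0.593) were the lowest. At TL3h, ITGB2 (112 ± 50.7), ICAM1 (98.8 ± 26.3) and SELPLG (83.1 ± 40.9) overlapped one another, above ITGAL (15.5 ± 6.29) and SELP (10.4 ± 5.88), with SELE (0.334 ± 0.192) and VCAM1 (0.104 ± 0.0365) at the end. At TL3d, ITGB2 (118 ± 21.4) was clear of ICAM1 (59.5 ± 17.1), and ITGAM (13.4 ± 0.771) was clear of ITGAL (9.23 ± 2.41). In TL3h the order of these alpha chains was the other way, ITGAL 15.5 and ITGAM 7.25 FPKM, though their ranges overlapped. SELE and VCAM1 had the lowest means of the 9 genes in all 4 groups, at TL3d too (2.49 ± 0.994 and 2.20 ± 1.14). Their ranges overlapped each other in all 4 groups, and in control and at TL14d those of other members as well. The FPKM of ITGB2 over the sum of ITGAL, ITGAM and ITGAX, another β2 partner, was 2.25 ± 1.32 in control, 4.80 ± 0.475 at TL3h, 4.22 ± 0.723 at TL3d and 2.45 ± 0.318 at TL14d, a ratio chosen after the values were seen.

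The 9 genes did not share 1 pattern over the 12 libraries. Pearson's r of log2 CPM was 0.98 for ITGB2 with ITGAM, 0.97 for SELPLG with ITGAL, and 0.91 for SELP with SELPLG. ICAM1 had r of 0.92 with SELPLG and 0.73 with SELP. VCAM1 had r of 0.80 with SELE, the other gene with all TL3d libraries above all TL3h libraries, and -0.38 with ICAM1. SELE itself had r of 0.66 with SELP and 0.16 with ICAM1. These values describe 12 libraries that share their groups and the same scaling, so that any genes raised at the same times correlate.

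**Figure D3:**
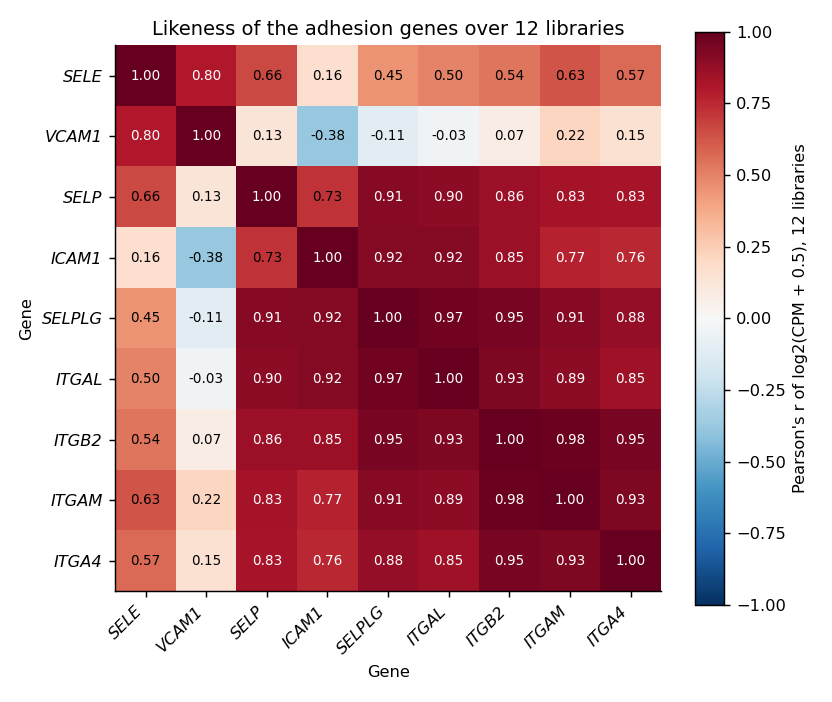
Pearson's r between the 9 genes over 12 libraries, from log2 of CPM plus 0.5 (colour scale from -1 to 1, value in each cell). The integrin chains, SELPLG and SELP form a block of high values, ICAM1 has 0.73 to 0.92 with these genes, and VCAM1 stands apart from all genes but SELE.

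Genes elsewhere in the table with the pattern nearest to each member, by the same measure over the 12 libraries, differed between members. SELP was nearest to NOS3, the nitric oxide synthase of endothelium (r = 0.97), and ICAM1 to NFKB2, a subunit of the NF-κB transcription factors (0.98). VCAM1 was nearest to DEPDC1, POLQ and SGO1 (0.95, 0.93 and 0.93). POLQ is a DNA polymerase used in repair and SGO1 protects the cohesion of chromosomes in division. ITGB2 was nearest to CD14, a co-receptor for bacterial lipopolysaccharide on monocytes, and to CD53, a leukocyte tetraspanin (0.995 and 0.993). The nearest genes were SRGN for SELPLG (0.99), NCKAP1L for ITGAM (0.99), HLX for ITGAL (0.99), INPP5D for ITGA4 (0.98) and C13H1orf54 for SELE (0.91).

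Marker genes of some cell types moved with the groups, the background being 23.2% of all genes called higher at TL3h and 10.6% at TL3d. All 9 tested neutrophil markers were higher at TL3h, and their summed level (11 genes in the table) was 1433 to 3671 CPM there against 4.82 to 109 in control, 168 to 883 at TL3d and 3.97 to 160 at TL14d. At TL3d 1 of the 9 was called higher. Of the neutrophil granule genes, LTF rose by 5.81 ± 1.26 at TL3h (q = 0.00407), while MMP8 was at 0 in every control and TL3h library, and MPO at or under 3 counts. Monocyte and macrophage markers summed to 107 to 830 CPM in control, 777 to 1185 at TL3h and 1442 to 2252 at TL3d, with 4 of 10 called higher at TL3h and 6 of 10 at TL3d. All 7 pan-leukocyte markers were higher at TL3h and 6 at TL3d (PTPRC, the common leukocyte antigen, by 2.68 ± 0.59 and 2.53 ± 0.59). T cell markers summed to 19.1 to 46.7 CPM in control and 13.6 to 28.3 at TL3h, with 0 of 9 called higher and 1 lower. The part of leukocyte number in the rise of the 5 leukocyte genes among the members was not tested.

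**Figure D4:**
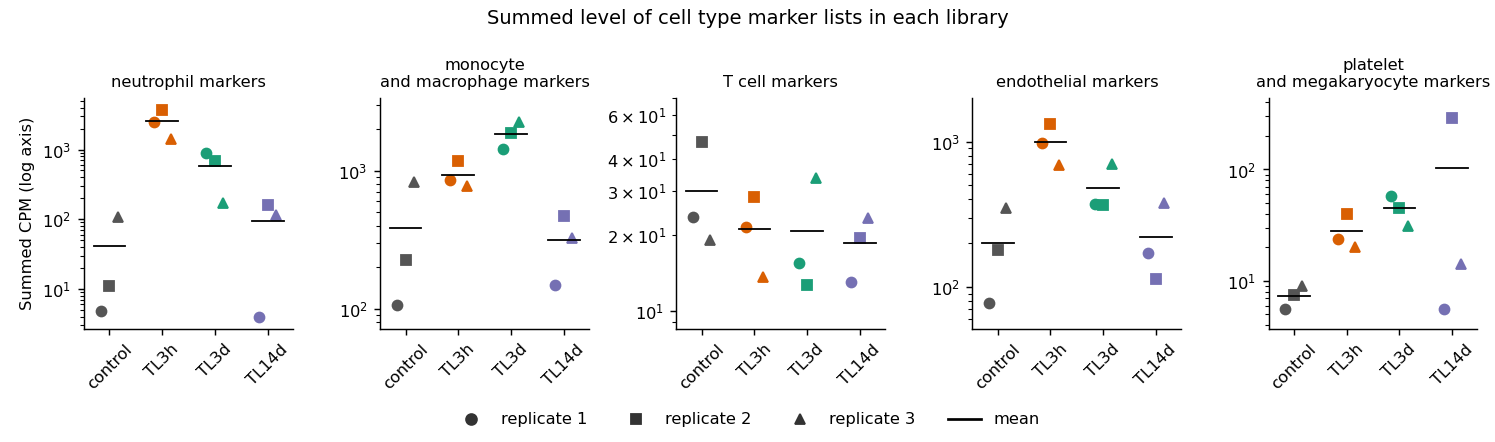
Summed CPM of 5 marker lists in each library (log axis, with a separate range in each panel). Symbols are replicates and lines are means. Neutrophil markers peak at TL3h, monocyte and macrophage markers at TL3d.

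Of 11 endothelial markers tested, 2 were called higher at TL3h, a share below the 23.2% of all genes, PECAM1 (3.68 ± 0.97, q = 0.0109) and the vascular cadherin CDH5 (2.46 ± 0.87, q = 0.0401), and 0 at TL3d. PECAM1 is carried by platelets and leukocytes too. The summed endothelial level was 76.9 to 349 CPM in control, 688 to 1332 at TL3h, 368 to 699 at TL3d and 114 to 376 at TL14d. At TL3h VCAM1, per summed level of 6 endothelial markers, was below all controls in all 3 libraries, by a mean of -5.4 on the log2 scale, or -3.59 without PECAM1 in the sum. SELP per the same sum overlapped control at all 3 times, with mean differences of 0.54 at TL3h and 1.16 at TL3d, which became 2.35 and 2.02 without PECAM1. For SELE and ICAM1 the mean differences at TL3h were -1.32 and -1.64, with libraries overlapping control, and 0.50 and 0.17 without PECAM1. PECAM1 made up most of this sum at TL3h, so both the size and, for SELE and ICAM1, the direction of these ratios depend on it.

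Platelets hold P-selectin as well. Of 8 listed platelet genes, 5 were in the table and 2 passed the filter. PPBP, a chemokine of platelet granules, was called higher at TL3h and TL3d. It was at 0 to 0.050 CPM in control, at or under 3 counts, 16.2 to 34.1 CPM at TL3h and 21.3 to 55.1 CPM at TL3d. At TL14d it was at 0, 287 and 7.0 CPM, and the library at 287, replicate 2, was also the highest for 6 of the 9 members. ITGA2B, the platelet integrin alpha chain and the other gene tested, was not called, with log2 fold changes of -0.59 ± 0.40 at TL3h (q = 0.259), where all 3 libraries lay below the controls, and -0.42 ± 0.40 at TL3d (q = 0.472). The platelet receptor genes GP1BA and GP9 were at 0 in every control and TL3h library. Conjunctival epithelium markers summed to 6316 to 14011 CPM in control and 5661 to 10072 at TL3h, with 1 of 7 called higher and 1 lower. EPCAM, an adhesion protein of epithelium, was the one higher (1.0 ± 0.16, q = 0.000884). ICAM1 is an epithelial gene too, and the part of the epithelium in its rise was not tested. The 5 tested B cell markers were 2 higher and 1 lower at TL3h and 2 higher at TL3d, with sums of 1.80 to 4.09 CPM in control, 4.57 to 12.9 at TL3h and 28.8 to 33.4 at TL3d.

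Relative to the summed level of 5 pan-leukocyte markers, 3 members were higher at TL3h than in control without overlap. The share of all genes that did so by this ratio was not computed. The mean log2 difference was 2.02 for ITGB2, 1.71 for SELPLG and 1.14 for ITGAL. At TL3d, ITGB2 (1.57) and ITGAM (0.96) were, and at TL14d ITGAL was lower without overlap (-0.71). The ratio of ITGA4 differed from control by 0.02, -0.18 and -0.09 at the 3 times with libraries overlapping control throughout, but without LCP1 in the sum the differences were -0.43 at TL3h and -0.81 at TL3d, and without LAPTM5 0.20 at TL3d. Ratios to a sum are descriptions with no test, and their size, and for the smaller ones their direction, depends on LCP1 and LAPTM5, the most abundant of the 5.

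Other genes of the adhesion cascade, in lists of related function, were counted the same way, against 45.4% of all genes called at TL3h and 17.6% at TL3d. The called shares of the selectin, integrin subunit and endothelial adhesion lists at TL3h were below the share of all genes. Of 15 other tested genes of the selectin step, ligand scaffolds and glycosylation enzymes among them, 4 were higher and 1 lower at TL3h, and 1 was higher and 1 lower at TL3d. CD44, a hyaluronan receptor that also binds E-selectin, rose by 2.25 ± 0.42 at TL3h and 1.74 ± 0.42 at TL3d. TPST1, an enzyme that adds the tyrosine sulfate needed for P-selectin binding, was lower at TL3d (-1.48 ± 0.41, q = 0.0358).

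Among 9 other leukocyte integrin subunits, 3 were higher at TL3h and 3 at TL3d. ITGAX, the CD11c chain of myeloid and dendritic cells, was at 1.85, 1.23 and 0.952 CPM in control, 3.5, 4.94 and 2.09 at TL3h and 18.9, 32.9 and 14.8 at TL3d. It passed the test at TL3d (4.04 ± 1.17, q = 0.0411) and not at TL3h (1.38 ± 1.07, q = 0.329). ITGB1, the VLA-4 beta chain, which most tissue cells also carry, rose by 0.73 ± 0.24 at TL3h (q = 0.0300). ITGB7, the alternative beta chain of ITGA4, changed by 0.67 ± 0.41 (q = 0.210).

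Genes that regulate integrins inside the leukocyte, not all of them by switching integrins on, were higher in 10 of 11 at TL3h and 4 of 11 at TL3d. FERMT3 (kindlin-3), which binds integrin beta tails, rose by 2.53 ± 0.43 and 1.81 ± 0.42. VAV1, a signalling protein of blood cells, rose by 2.47 ± 0.37 at TL3d, and RHOH by 3.44 ± 0.64 at TL3h. Of 13 other endothelial adhesion and transmigration genes, 3 were higher and 2 lower at TL3h, and 1 higher and 2 lower at TL3d. PVR (CD155) was higher at TL3h (2.93 ± 0.39) and TL3d (1.27 ± 0.37). ALCAM was lower at TL3h (-1.75 ± 0.40), and CX3CL1, the membrane-bound chemokine fractalkine, was lower at TL3h (-0.75 ± 0.26) and TL3d (-1.64 ± 0.26). ICAM2, a second LFA-1 ligand, changed by 0.99 ± 0.54 at TL3h (q = 0.166). MADCAM1, the mucosal vessel addressin, was at 0 in every control, TL3h and TL3d library.

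Cytokines and receptors that induce endothelial adhesion genes were higher in 6 of 8 tested at TL3h, and 3 were higher and 1 lower at TL3d. IL1B, one of the 2 interleukin-1 genes, was at 0.475, 0.400 and 4.01 CPM in control and 469, 411 and 294 CPM at TL3h (7.91 ± 2.09, q = 0.0111). IL1A rose by 9.17 ± 2.41 at TL3h and 9.41 ± 2.43 at TL3d. The interleukin-4 receptor chain IL4R was higher at TL3d (2.11 ± 0.41), and the interleukin-1 receptor IL1R1 was lower (-1.89 ± 0.46). IL4 was at 0 in all 4 groups. Of 4 sheddases, proteases that cut adhesion proteins from the cell surface, 3 were higher at TL3h and 1 at TL3d. ADAM17 was higher at both, by 0.64 ± 0.19 and 0.91 ± 0.19. At TL14d, 0 genes of any of these lists were called.

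The table of transcripts divided the 9 genes into 22 models, of which 19 passed the filter. At TL3h, 9 were called higher (28.3% of all transcripts were called), at TL3d 2 (5.13%) and at TL14d 0. ICAM1 had 2 models. The longer, of 2021 bases, held 89.1% to 99.0% of its counts and rose by 2.18 ± 0.41 at TL3h (q = 0.00348). The shorter, of 1522 bases, changed by 0.12 ± 0.58 (q = 0.913), its share of ICAM1 counts being 6.94% in control and 1.72% at TL3h. The difference between the models was not tested. SELP had 8 models, of which the one of 2977 bases held 71.4% to 100% of the counts and rose by 3.88 ± 0.87 at TL3h (q = 0.00826). A SELP model of 2793 bases was at 0 rounded counts in all control and TL14d libraries and held 3.86% to 14.6% of SELP counts at TL3h, a split among nearly equal models that is an estimate of the authors' counting.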

How the data were processed

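Poly(A) RNA of conjunctiva was sequenced with a stranded kit. Per the labels, reads were aligned with STAR 2.6.0c to OryCun2.0. The deposited gene and transcript tables hold the authors' estimated counts, which need not be whole (23.4% of gene values were fractions), and the authors' FPKM values, scaled by transcript length and library. The study's methods name GeneData Profiler Genome for expression levels. Estimated counts were rounded and analysed with edgeR 4.0.16 in R 4.3.3: filterByExpr (minimum count 10), TMM scaling, and a quasi-likelihood fit over all 12 libraries with contrasts of groups. FPKM values were only described. The test was tried on simulated data of 14835 genes for TL3h against control. It recovered 7 of 50 genes changed 2-fold, 33 of 50 at 4-fold, 41 of 50 at 8-fold and 45 of 50 at 16-fold, with 2 false calls. Far fewer genes were changed there than were called in the data. The adjusted threshold was thus stricter there, and recovery in the data may have been higher. Summed marker levels and log2(CPM + 0.5) were computed from scaled CPM.

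ITGAM was matched through its gene ID in a RefSeq gene table of another rabbit assembly, used for names only. Positions are those in the deposited table; SELPLG, ICAM1, ITGAM, ITGAL and ITGB2 lie on unplaced sequence. The members and the 14 gene lists were chosen with earlier results of these data known. All 9 members are named. Of each list, the rule allowed at most 2 genes higher and 2 lower per comparison, those called with the largest change and no overlap of libraries. ITGAX, ITGB1, ITGB7, PECAM1, CDH5, ICAM2 and PTPRC could always be named. LTF, ITGA2B, LCP1 and genes at or near 0 were added outside this rule. A further gene of the lists is not reported here. Of the likeness ranking over genes with a mean CPM of at least 1, the 3 nearest genes could be named. Alternatives were DESeq2 size factors, library size only, no filter, DESeq2 1.42.0, the replicate number as a block, only the 6 libraries compared, and each library left out. Libraries of a MicroShunt device were not analysed here.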

Additional observations from a re-analysis of the deposited data

Results flagged for a closer look

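Several members' effects over control differed between times by the test of the difference itself, edgeR's contrast of both operated groups. At TL14d against TL3h, the log2 fold change was -3.34 for SELPLG (q = 0.00334), -3.19 for SELP (q = 0.0126), -3.15 for ITGAL (q = 0.00254) and -1.63 for ICAM1 (q = 0.00757), with all 3 TL14d libraries below all 3 TL3h libraries in each. At TL3d against TL3h it was 3.93 for VCAM1 (q = 0.00836), higher in 3 of 3 libraries, and -1.23 for ICAM1 (q = 0.0321), lower in 3 of 3. The ICAM1 call was kept in 12 of 18 alternative fits, and VCAM1 was not called against control at either time. Of all genes, 45.3% were called at TL14d against TL3h and 37.3% at TL3d against TL3h. The members called, 4 of 9 and 2 of 9, were not above these shares.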

How the results depend on the processing

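Of 972 fold changes of the 9 genes under 18 alternatives in 6 comparisons, 886 kept their direction and side of the threshold, 40 lost a call, 32 gained one and 14 turned direction. With 1 library left out, the count of members called ranged from 6 to 8 at TL3h, 0 to 6 at TL3d and 0 to 0 at TL14d. It was 1 to 4 for TL3d against TL3h, 4 to 6 for TL14d against TL3h and 0 to 2 for TL14d against TL3d. Over all 15037 to 15131 genes tested, calls ranged, in the same order, from 5280 to 7271, 359 to 3778 and 0 to 716 against control. Between times they ranged from 3954 to 6231, 5464 to 6798 and 0 to 584. Called transcripts of the members ranged from 5 to 10 at TL3h, 0 to 8 at TL3d and 0 to 0 at TL14d. Those of all genes ranged from 4903 to 8045, 0 to 2920 and 0 to 426. For TL3d against TL3h, 1 member was called with library size only (6311 of 14835 genes) and 5 with only the 6 libraries compared (5823 of 14245). DESeq2 called 7 for TL14d against TL3h (7611 of 14835 genes) and 4 for TL14d against TL3d (1850 of 14835). At TL3d, 1 transcript was called with no filter (897 of all 33509), 9 by DESeq2 (4840 of 26082) and 6 with only the 6 libraries compared (2443 of 24278). Scaling by library size only moved the median of all genes at TL3h from 0.02 to -0.47 (1889 higher and 5674 lower, against 3435 and 3298), and it left 6 members called higher there and VCAM1 called lower. DESeq2 called 4471 genes at TL3d, where edgeR called 2608. The cause was not tested. Groups of 3 limit what could be called at 2-fold, where 7 of 50 genes were recovered in a simulation with a stricter threshold.

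Whether replicate numbers pair the libraries could not be decided, since differently numbered libraries were not compared in the same way. Deviations of same-numbered libraries from their group means correlated with those of control by 0.30, -0.15 and -0.15 at TL3h. The values were 0.53, -0.14 and 0.37 at TL3d and 0.25, 0.01 and 0.45 at TL14d. With the replicate block, 6946, 2719 and 0 genes were called at the 3 times, and 7, 6 and 0 members. At TL3d 0 transcripts of the members were called in place of 2, with 1042 of all 26082. For TL14d against TL3h, 6 members were called, with 6844 of 14835 genes. VCAM1 at TL14d turned to -0.040 under the block.

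Turns of direction were all in differences that passed no threshold. With library size only, ITGB2 changed by 0.050 and ITGA4 by 0.42 for TL3d against TL3h. With 1 library left out, the change at TL14d ranged from -1.14 to 4.27 for SELE, -0.32 to 1.41 for SELP, -0.083 to 0.78 for ICAM1, -0.90 to 1.23 for VCAM1 and -0.32 to 0.85 for ITGAL; for TL14d against TL3h, SELE ranged from -2.15 to 0.94, and for TL3d against TL3h, ITGA4 from -0.19 to 0.11.

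Ratios to summed markers (mean log2 difference from control) turned direction in 11 cases and moved in 20, while 116 moved by less than the spread. Without PECAM1 in the endothelial sum they went from -1.32 to 0.50 for SELE at TL3h and from 2.78 to 3.64 at TL3d, for SELP from 0.54 to 2.35 and 1.16 to 2.02, for ICAM1 from -1.64 to 0.17 and -1.31 to -0.44, and for VCAM1 from -5.4 to -3.59 and -0.013 to 0.85. With all markers in the leukocyte sum, the values at TL3h, TL3d and TL14d were 1.71, 0.18 and -0.20 for SELPLG, 0.58, 0.96 and -0.047 for ITGAM, 1.14, -0.15 and -0.71 for ITGAL, 2.02, 1.57 and 0.35 for ITGB2, and 0.02, -0.18 and -0.09 for ITGA4. Without LCP1 in the leukocyte sum they were 1.26 at TL3h, -0.45 at TL3d and -0.58 at TL14d for SELPLG, 0.13 and 0.34 at TL3h and TL3d for ITGAM, 0.69, -0.78 and -1.09 for ITGAL, 1.57, 0.95 and -0.029 for ITGB2, and -0.43 and -0.81 at TL3h and TL3d for ITGA4. Without LAPTM5 they were 0.56 at TL3d and 0.25 at TL14d for SELPLG, 1.35 and 0.40 for ITGAM, 0.24 and -0.26 for ITGAL, 0.20 and 0.36 for ITGA4, and 1.96 at TL3d for ITGB2; without CD53, 1.02 for ITGAM at TL3d.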
